A study of Homo sapiens with 16 samples.

Results

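The nuclear genes of oxidative phosphorylation were followed through corin treatment of 2 human melanoma cell lines resistant to BRAF inhibition (BRAFi-R), 451Lu-R and 1205Lu-R. Members were the protein-coding genes whose symbols name a subunit of complexes I to V (NDUFA, NDUFB, NDUFC, NDUFS and NDUFV genes, SDHA to SDHD, UQCR genes and CYC1, COX4 to COX8 genes, and ATP5 genes), with the assembly factors and the inhibitor ATP5IF1 left out. Of 34228 genes in the count table, 87 were members, 39 of complex I, 4 of complex II, 10 of complex III, 15 of complex IV and 19 of complex V. COX6A2 and COX7A1 also carry such names and were not analysed here. RNA-Seq of polyadenylated RNA gave 8 libraries with counts, 2 per line after 24 hours of corin at 2.5 μM and 2 per line after the vehicle DMSO. Corin is a bivalent inhibitor of the CoREST repressor complex that acts on its histone deacetylases and on the demethylase LSD1. Both lines had been made resistant by growth in rising concentrations of the BRAF inhibitor PLX4032 and were maintained in 5 μM of it, so every group compared here shares that selection. By the labels, PLX4032 was not part of the treatment in the 8 libraries compared here, while other samples of the series received it. 451Lu-R was described as MITFhi/AXLlo and 1205Lu-R as MITFlo/AXLhi, with 1 line standing for each phenotype.

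Oxidative phosphorylation passes electrons from NADH (complex I) and succinate (complex II) through complex III and cytochrome c to oxygen at complex IV, and complex V, the ATP synthase, uses the proton gradient that results. Complexes I, III, IV and V are assembled from subunits of both the nuclear and the mitochondrial genome, whereas complex II is encoded in the nucleus alone. In the melanocyte lineage the coactivator PGC1α (PPARGC1A), a target of MITF, is known to raise the expression of these genes.

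Libraries held from 9516563 to 11797686 estimated counts, and replicates differed by little more than counting noise, their chi-square divided by its degrees of freedom being 1.34 to 1.41. No source used here states that replicates were separate cultures, so p-values measure the spread between these libraries only. The markers fitted the labels: all 8 melanocyte lineage markers were called lower in 1205Lu-R than in 451Lu-R and all 4 markers of the undifferentiated state were called higher. Of 9 markers of leukocytes, epithelium, endothelium and fibroblasts in the table, PTPRC, EPCAM and KRT5 stood at or near 0 in every library. VWF and KRT18 rose with corin in both lines, LUM and DCN rose in 451Lu-R, PECAM1 fell in 1205Lu-R, and the part of these markers in the results was not tested. In bulk libraries, less RNA per cell and fewer cells expressing a gene cannot be told apart.

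Corin treatment lowered more nuclear OXPHOS genes than it raised in both lines, by amounts that were mostly small. Levels are given as CPM, the counts relative to library size scaled by TMM factors over all 8 libraries, and differences as log2 fold changes with their SE from edgeR's quasi-likelihood test. A gene was called at a Benjamini-Hochberg adjusted p (FDR) under 0.05. In 451Lu-R, 81 members passed the filter on low counts, and 20 rose, 42 fell and 19 did not pass the test. Among all 14530 genes tested there, 41.3% rose and 38.6% fell. At least 1.5-fold, 3 members rose and 15 fell, where 29.9% of all genes rose and 24.2% fell by that much. In both lines COX6B2 is among the members that rose, and only a rise could be called for it, as described below. The members' median log2 change was -0.14, against 0.03 for all genes tested.

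In 1205Lu-R, 15 of 81 members rose, 43 fell and 23 did not pass the test, with 40.4% of all genes rising and 37.8% falling. Only 3 members rose and 10 fell by at least 1.5-fold (29.9% and 21.1% of all genes). Their median log2 change was -0.16, against 0.03 for all genes tested. The share of falling members thus lay above that of all genes in both lines, and the share with larger falls did not in 451Lu-R (15 of 81) or in 1205Lu-R (10 of 81). The libraries with corin did not overlap those with DMSO for 70 of 81 members in 451Lu-R cells and for 74 of 81 in 1205Lu-R cells, where this held for 89.2% and 88.6% of all genes.

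**Figure D1:**
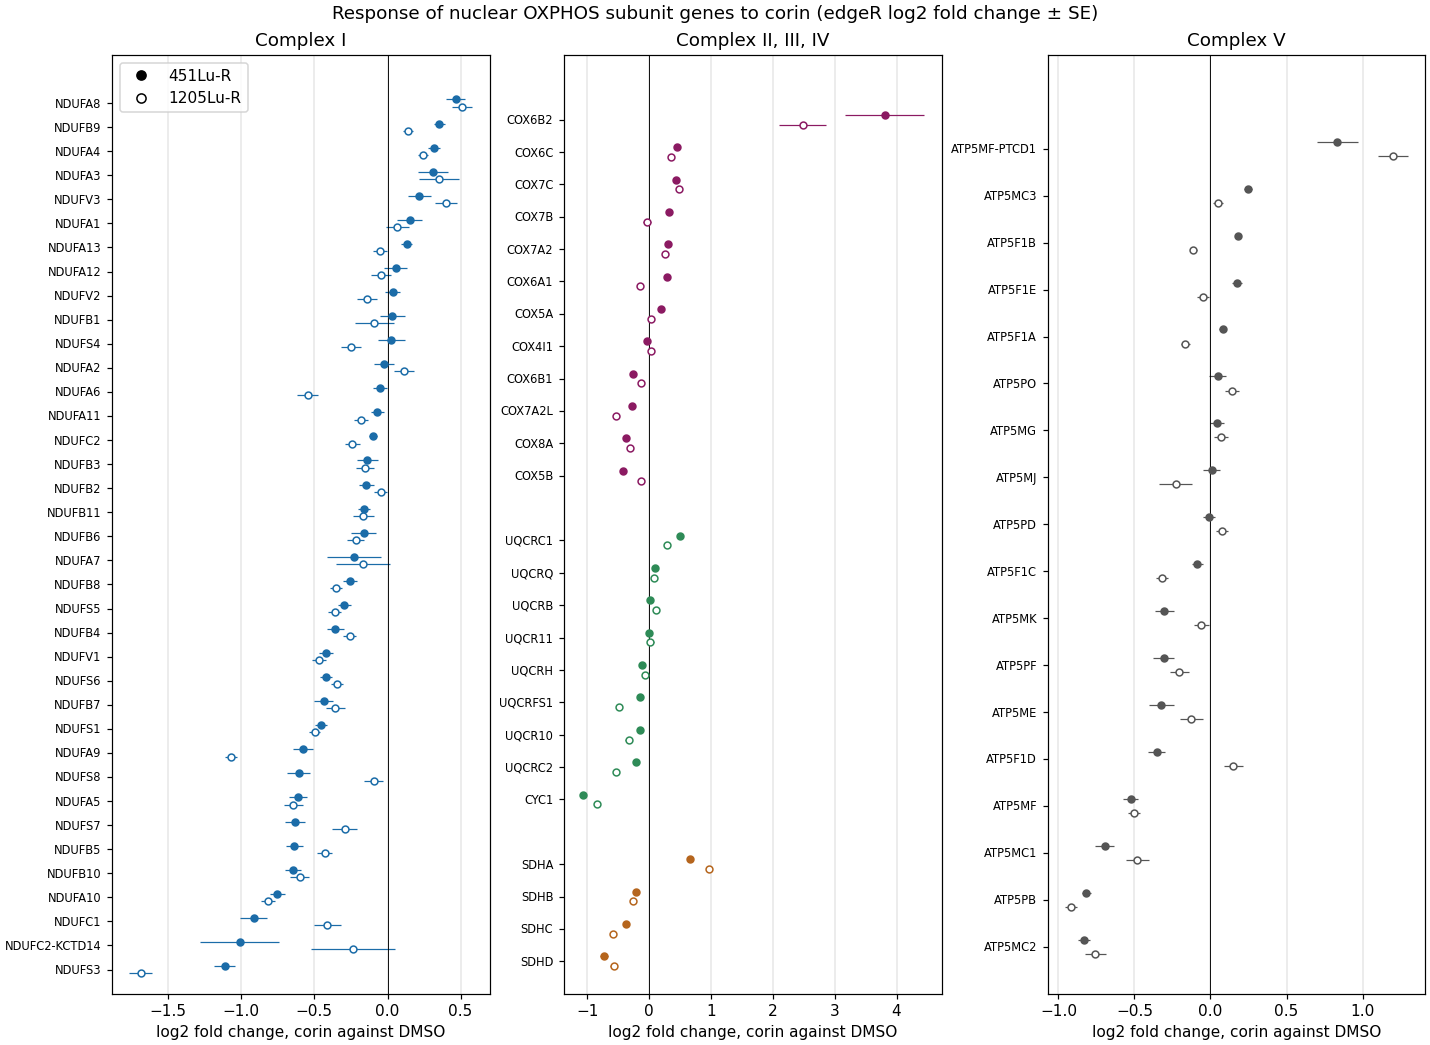
The log2 fold change of corin against DMSO is plotted for 80 of the 81 members tested (1 is not drawn), by complex, with filled points for 451Lu-R, open points for 1205Lu-R and bars for the SE. Complex I leans to the left of 0, down to NDUFS3 at -1.11 and -1.69, whereas COX6B2, ATP5MF-PTCD1 and SDHA stand apart to the right.

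Most members were called in the same direction in both lines, as were most of all genes tested in both. In both lines 35 members fell and 12 rose, and another 12 passed the test in neither. Of 13200 genes tested in both lines, 28.5% fell and 28.8% rose in both and 8% passed in neither. Across the 81 members the log2 changes of 451Lu-R and 1205Lu-R correlated with Pearson's r of 0.889 and Spearman's rho of 0.831, and with r of 0.837 without COX6B2. Over all genes tested in both lines r was 0.692. Genes are not independent replicates and these values describe the libraries only. At least 1.5-fold in both lines, 8 members fell (among them NDUFA5, NDUFA10, NDUFB10, NDUFS3, CYC1, ATP5MC2 and ATP5PB) and 3 rose (SDHA, COX6B2 and ATP5MF-PTCD1), where 13.9% and 18.6% of all genes did. Of these, COX6B2 passed the filter on low counts only through its corin libraries.

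**Figure D2:**
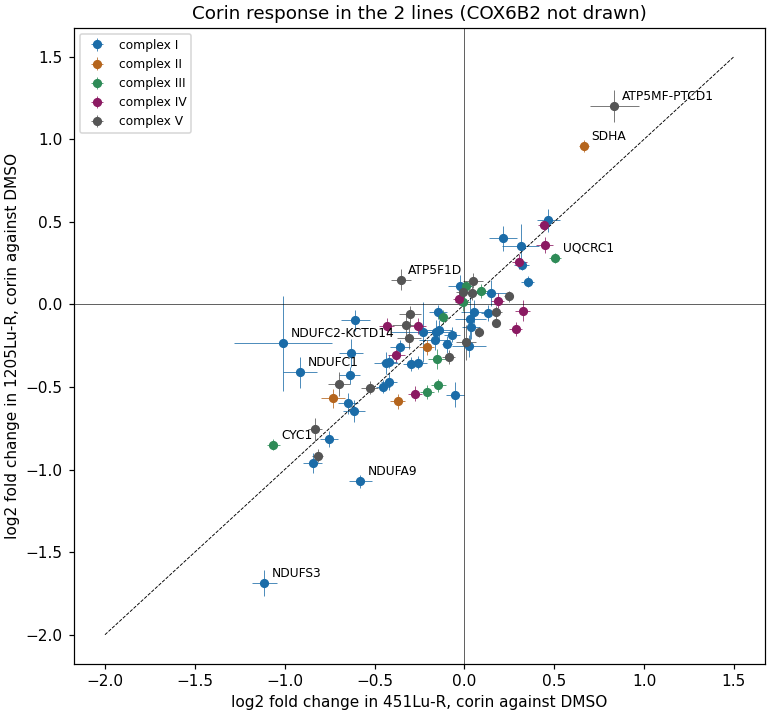
Each point is 1 of 80 members, placed by its log2 fold change in 451Lu-R (x axis) and in 1205Lu-R (y axis), with bars for the SE and colours for the complex; COX6B2, at 3.81 and 2.48, is not drawn. Points follow the dashed line of equal response, and NDUFS3 and NDUFA9 lie below it.

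Complex I, the NADH dehydrogenase, is the largest complex and had more falling than rising genes. Of its 38 members tested, 6 rose, 21 fell and 11 did not pass in 451Lu-R, and 5 rose, 23 fell and 10 did not pass in 1205Lu-R. None rose by 1.5-fold in either line, while 10 and 6 fell by that much. By the share of its tested members that fell, 55.3% for 451Lu-R and 60.5% for 1205Lu-R, it lay above all genes (38.6% and 37.8%). Complex II lay higher, with 75% in both lines, which is 3 of only 4 genes. In 451Lu-R complex III, with 5 of 9 (55.6%), lay just above complex I. In complex I, falls of at least 1.5-fold were about as frequent as among all genes in 451Lu-R (10 of 38 against 24.2%). In 1205Lu-R they were less frequent (6 of 38 against 21.1%). The 10 include the read-through gene NDUFC2-KCTD14, whose fall rested on 1 library, as given below. NDUFS3, a core subunit of the arm that reaches into the matrix, changed most. It stood at 63.2 and 61.8 CPM with DMSO and at 29.1 and 27.8 with corin in 451Lu-R, and at 59.3 and 54.6 against 17.0 and 17.1 CPM in 1205Lu-R. Every corin library lay below every DMSO library of its line, with log2 fold changes of -1.11 ± 0.07 (FDR 1.18e-11) and -1.69 ± 0.08 (FDR 1.58e-14). Corin and DMSO libraries also did not overlap for 89.2% and 88.6% of all genes tested in the 2 lines. NDUFS3 lies on chromosome 11 (47565336 to 47584562, plus strand, GRCh38) and overlaps PTPMT1 on the same strand and KBTBD4 and CELF1 on the other, so that reads shared with these genes could be split between them.

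Most of the nuclear core subunits described here, which include carriers of the flavin and the iron-sulfur clusters, fell. Beside NDUFS3, NDUFS1 fell by 0.45 (451Lu-R) and 0.50 (1205Lu-R) on the log2 scale, NDUFV1 by 0.42 and 0.47, and NDUFS7 by 0.63 and 0.29. DESeq2 did not call the fall of NDUFS7 in 1205Lu-R. NDUFS8 fell in 451Lu-R by 0.61 and was at -0.10 (FDR 0.17) in 1205Lu-R. NDUFV2 was the exception in both lines, at 0.03 and -0.14 with an FDR of 0.54 and 0.073.

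Among the accessory subunits of complex I, the largest change in 1205Lu-R after NDUFS3 was that of NDUFA9, which sits beside the quinone site. Its levels were 160 and 155 CPM with DMSO against 72.8 and 72.2 with corin in 1205Lu-R, and 62.2 and 61.0 against 42.3 and 39.0 CPM in 451Lu-R. The log2 fold changes were -1.07 ± 0.04 (FDR 3.71e-16) and -0.58 ± 0.07 (FDR 1.08e-07). NDUFA8 led the 5 complex I genes that rose in both lines, NDUFA3, NDUFA4, NDUFA8, NDUFB9 and NDUFV3, with 0.47 in 451Lu-R and 0.51 in 1205Lu-R. NDUFA4, which carries a complex I name and is counted as a subunit of complex IV today, went from 108 and 111 to 130 and 140 CPM in 451Lu-R and from 166 and 163 to 185 and 190 in 1205Lu-R. Its paralogue NDUFA4L2 had at most 6 counts in a library and was not tested.

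The read-through gene NDUFC2-KCTD14 was at 7.96 and 4.42 CPM with DMSO against 3.50 and 2.56 with corin in 451Lu-R cells. Its fall by 1.01 ± 0.27 on the log2 scale (FDR 0.00215) rested on the first DMSO library, since the value without it was -0.52 with an FDR of 0.141. In 1205Lu-R its levels were 2.55 and 3.24 against 2.32 and 2.41 CPM, a log2 change of -0.24 (FDR 0.461). Read-through genes share exons with the single genes they join, and their counts are uncertain for that reason.

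Complex II, the succinate dehydrogenase, split between its subunits. SDHA, the flavoprotein that oxidizes succinate, rose in both lines, and the 3 other subunits fell in both. SDHA went from 265 and 274 to 429 and 414 CPM in 451Lu-R and from 94.0 and 95.8 to 177 and 179 CPM in 1205Lu-R, 1.59-fold and 1.95-fold (log2 0.67 ± 0.03, FDR 1.88e-14, and 0.96 ± 0.04, FDR 8.02e-16). SDHB, the iron-sulfur subunit that partners it, went from 127 and 122 to 105 and 109 CPM and from 88.2 and 89.2 to 73.4 and 69.9 CPM. The membrane anchors SDHC and SDHD fell further. SDHC was at 136 and 134 against 102 and 104 CPM in 451Lu-R and at 110 and 108 against 71.7 and 69.2 in 1205Lu-R (log2 -0.37 and -0.59). SDHD was at 77.2 and 71.1 against 46.4 and 41.6 CPM and at 68.9 and 68.3 against 44.1 and 45.1 CPM (log2 -0.73 and -0.57). For none of the 4 genes did the corin and DMSO libraries of a line overlap. The same held for 89.2% of all genes tested in 451Lu-R and for 88.6% in 1205Lu-R.

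SDHA lies on chromosome 5 (218303 to 257082, plus strand, GRCh38) and has 4 named pseudogenes in the table. They held between 1.9% and 9.47% of the combined counts of SDHA and its pseudogenes in a library, and adding them to SDHA left its rise called in both lines. A further annotated gene overlaps it on the same strand. The summed level of complex II rose in 451Lu-R, from 605 and 602 to 682 and 669 CPM, and in 1205Lu-R was 362 and 361 before and 366 and 364 CPM after corin, although 3 of 4 genes had fallen.

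**Figure D3:**
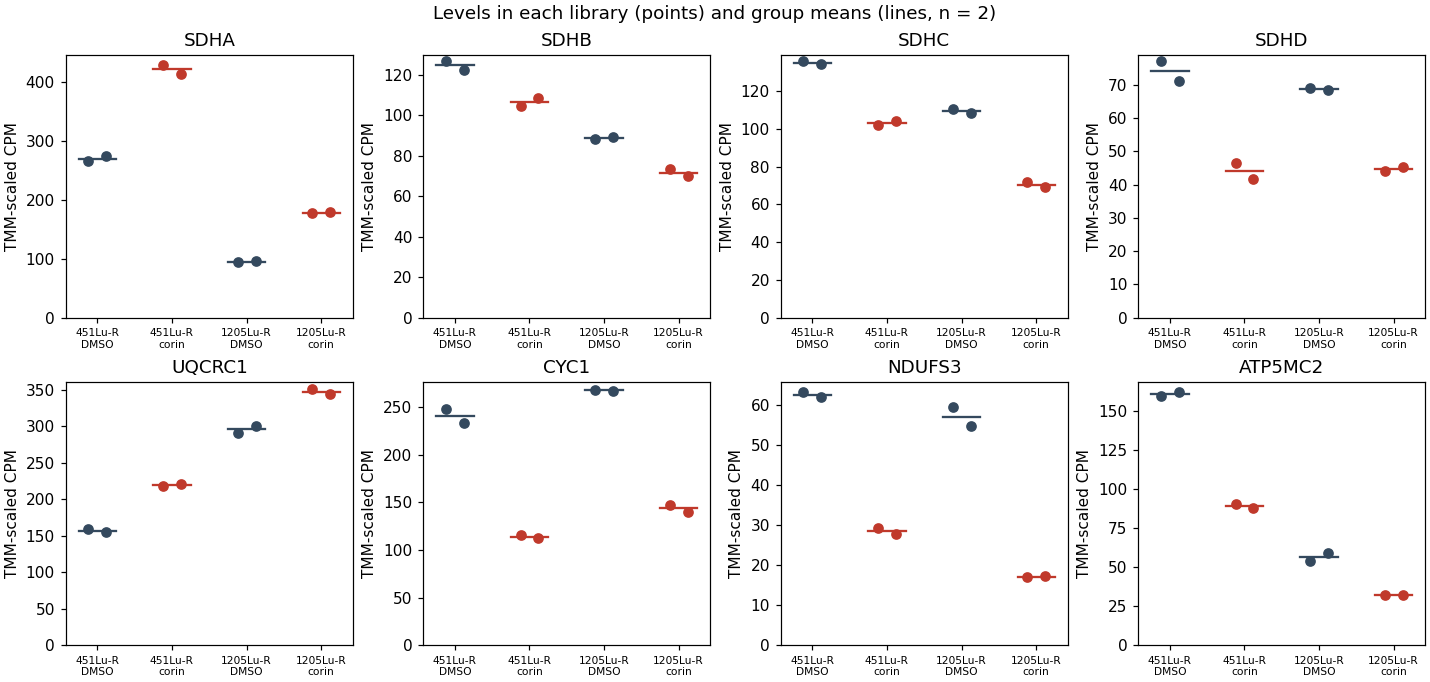
Levels in CPM are plotted for 8 members in each of the 8 libraries (points) with the mean of each group of 2 (lines), DMSO in dark blue and corin in red. SDHA and UQCRC1 rise with corin in both lines, SDHB, SDHC, SDHD, CYC1, NDUFS3 and ATP5MC2 fall, and no corin library overlaps a DMSO library of its line. Such separation held for 89.2% of all genes tested in 451Lu-R and for 88.6% in 1205Lu-R.

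In complex III, the cytochrome bc1 complex, CYC1 and UQCRC1 moved apart. CYC1 encodes cytochrome c1, which hands electrons to cytochrome c, and its level fell from 249 and 234 to 115 and 113 CPM in 451Lu-R and from 269 and 267 to 147 and 140 CPM in 1205Lu-R. Its log2 fold changes were -1.06 ± 0.04 (FDR 9.08e-16) and -0.85 ± 0.03 (FDR 1.44e-15). UQCRC1, a core protein that carries no electrons, was at 159 and 155 CPM with DMSO against 219 and 222 with corin in 451Lu-R, and at 292 and 301 against 351 and 345 CPM in 1205Lu-R (log2 0.51 ± 0.03, FDR 1.72e-11, and 0.28 ± 0.03, FDR 3.18e-08). Its partner core protein UQCRC2 fell, from 126 and 128 to 110 and 107 CPM and from 135 and 137 to 94.1 and 87.5 CPM.

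The Rieske iron-sulfur protein UQCRFS1 fell by 0.14 and 0.49 on the log2 scale, and UQCR10 by 0.15 and 0.33. In 451Lu-R DESeq2 called neither of these falls. UQCRH, the hinge protein, was at 256 and 248 against 234 and 224 CPM in 451Lu-R, a fall that DESeq2 did not call (adjusted p 0.0828), and at 134 and 130 against 117 and 124 CPM in 1205Lu-R (FDR 0.0948). UQCRB rose in 1205Lu-R by 0.11, which DESeq2 did not call, and was at 0.01 (FDR 0.83) in 451Lu-R. UQCRQ and UQCR11 lay between -0.01 and 0.09 and passed the test in neither line. The intronless copy UQCRHL had at most 5 counts.

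Complex IV, the cytochrome c oxidase, had the highest share of rising genes in 451Lu-R, 7 of its 12 members tested, with 4 falling. In 1205Lu-R 4 rose and 5 fell. The 451Lu-R shares were 58.3% rising and 33.3% falling, where all genes gave 41.3% and 38.6%. Those of 1205Lu-R, 33.3% and 41.7%, lay near the 40.4% and 37.8% of all genes. Its median log2 change was 0.24 in 451Lu-R but -0.01 in 1205Lu-R, and its summed level went from 1386 and 1396 to 1445 and 1442 CPM and from 1248 and 1224 to 1185 and 1209 CPM. COX6C, COX7A2, COX7C and COX6B2 rose in both lines. COX6B2 passed the filter on low counts only through its corin libraries, so only a rise could be called for it. It counts in the shares and medians above. COX6C was at 69.1 and 68.1 against 92.3 and 92.5 CPM in 451Lu-R and at 86.1 and 82.6 against 109 and 100 CPM in 1205Lu-R (log2 0.45 ± 0.05 and 0.36 ± 0.05). COX7C rose by 0.44 ± 0.03 and 0.48 ± 0.04. COX5B, COX6B1, COX7A2L and COX8A fell in both lines. The falls of COX5B and COX6B1 in 1205Lu-R were not called with DESeq2 or with library sizes alone.

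The catalytic core of complex IV is mitochondrially encoded, and its nuclear subunits come in paralogues used by different tissues. The ubiquitous forms carried the counts here. COX4I1, the first nuclear subunit to join the core, was at 193 and 187 against 183 and 185 CPM in 451Lu-R and 194 and 201 against 194 and 196 CPM in 1205Lu-R (FDR 0.386 and 0.39). Scaled by library size alone, its log2 changes of -0.13 and 0.11 passed the test. Its paralogue COX4I2 had no count in any library, which allows up to 3 counts in each. COX7B2 and COX8C had at most 1 and 3 counts.

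COX6B2, the form of COX6B known from testis, rose from near 0. Its 3 and 0 counts with DMSO became 28 and 17 with corin in 451Lu-R, and it had 8 and 5 against 33 and 41 counts in 1205Lu-R. The ratio of corin to DMSO after depth scaling was 15 (95% counting interval 4.80 to 75.3) and 5.49 (3.02 to 10.8). The edgeR log2 fold changes were 3.81 ± 0.64 (FDR 1.96e-05) and 2.48 ± 0.38 (FDR 4.21e-06), and the first depends on the prior count since the DMSO libraries were at or below 3 counts. COX6B2 passed the filter on low counts only through its corin libraries, and it was not tested between the lines without corin. For it only a rise could be called, so these FDR values add little to the counts. Even with corin COX6B2 stayed between 1.74 and 3.53 CPM, while the ubiquitous COX6B1 was between 75.7 and 95.4 CPM in the same libraries. COX6B1 itself went from 110 and 117 to 92.1 and 95.4 CPM in 451Lu-R and from 91.1 and 87.5 to 75.7 and 81.7 in 1205Lu-R, where its fall of 0.13 (FDR 0.0204) was lost with DESeq2 (adjusted p 0.217), with library sizes alone (0.302), without the first DMSO library (0.0942) and without the first corin library (0.22).

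The other paralogue sets of complex IV moved as follows. COX6A1 rose in 451Lu-R, from 133 and 131 to 156 and 162 CPM, and was at 153 and 142 against 126 and 131 CPM in 1205Lu-R. COX7A2 rose in both lines, from 108 and 115 to 137 and 134 CPM and from 92.8 and 88.1 to 105 and 104 CPM. The related COX7A2L, which joins complexes III and IV into supercomplexes, fell in both, from 139 and 143 to 116 and 112 CPM and from 113 and 112 to 72.6 and 76.2 CPM (log2 -0.28 ± 0.04 and -0.54 ± 0.04). COX7B rose in 451Lu-R, from 98.2 and 96.4 to 120 and 121 CPM, and was at 50.7 and 50.2 against 47.9 and 47.1 CPM in 1205Lu-R (FDR 0.592). COX8A fell in both, from 126 and 130 to 101 and 92.0 CPM and from 163 and 166 to 124 and 131 CPM.

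Of 18 complex V members tested, 5 were raised and 9 lowered in 451Lu-R cells, against 3 and 8 in 1205Lu-R cells. In 451Lu-R these are 27.8% and 50% of the members tested, where all genes gave 41.3% and 38.6%. In 1205Lu-R they are 16.7% and 44.4%, against 40.4% and 37.8% of all genes. The peripheral stalk subunit ATP5PB fell from 281 and 280 to 157 and 157 CPM in 451Lu-R and from 195 and 192 to 95 and 103 CPM in 1205Lu-R (log2 -0.82 ± 0.03, FDR 2.55e-15, and -0.92 ± 0.04, FDR 4.40e-15). The other stalk subunits ATP5PD and ATP5PO lay between -0.01 and 0.14, with only the 0.14 of ATP5PO in 1205Lu-R passing the test. ATP5PF fell by 0.31 and 0.21, and in 1205Lu-R DESeq2 called neither this fall nor the rise of ATP5PO.

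ATP5MC1, ATP5MC2 and ATP5MC3 encode the same mature c subunit of the rotor ring, and they responded differently. ATP5MC2 was at 159 and 162 against 90.3 and 87.7 CPM in 451Lu-R and at 53.7 and 58.7 against 31.9 and 32.3 CPM in 1205Lu-R, a fall by 0.83 ± 0.04 and 0.76 ± 0.07 on the log2 scale (FDR 1.69e-13 and 2.01e-09). ATP5MC1 was at 69.1 and 69.2 against 43.3 and 40.8 CPM and at 80.1 and 86.0 against 50.1 and 63.9 CPM, with log2 fold changes of -0.70 ± 0.06 and -0.48 ± 0.07. ATP5MC3 rose in 451Lu-R, from 319 and 312 to 368 and 371 CPM, and was at 322 and 307 against 318 and 311 CPM in 1205Lu-R (FDR 0.177). Scaled to coding length, ATP5MC3 was the most abundant of them in every group, at 741 CPM per kb with DMSO in 451Lu-R against 380 for ATP5MC2 and 170 for ATP5MC1. Scaled to the canonical transcript, ATP5MC2 came first there with 254 against 122 for ATP5MC3 and 107 for ATP5MC1, so that their order depended on the length used.

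In the F1 head, where ATP is made, the 5 subunits did not move together. ATP5F1A and ATP5F1B, its alternating subunits, rose in 451Lu-R by 0.08 and 0.18 on the log2 scale but fell by 0.17 and 0.11 in 1205Lu-R. ATP5F1C fell in both lines, by 0.09 and 0.32, and ATP5F1E rose by 0.18 in 451Lu-R and was at -0.05 (FDR 0.234) in 1205Lu-R. The fall of ATP5F1C in 451Lu-R was not called with RLE factors or DESeq2. COX6A1 of complex IV moved like ATP5F1A, rising by 0.29 and falling by 0.15, and ATP5F1D went the other way, falling by 0.36 in 451Lu-R and rising by 0.15 in 1205Lu-R. The interaction term called ATP5F1A, ATP5F1B, COX6A1 and ATP5F1D, although these small changes did not all hold when scaled by library size alone, where ATP5F1A in 451Lu-R was at -0.02 (adjusted p 0.453), ATP5F1B in 1205Lu-R at -0.04 (0.161) and COX6A1 in 1205Lu-R at -0.08 (0.0963). With DESeq2, COX6A1 (adjusted p 0.0651) and ATP5F1D (0.250) in 1205Lu-R were not called. The read-through gene ATP5MF-PTCD1 rose from 16.7 and 10.9 to 26.5 and 22.5 CPM and from 16.3 and 13.3 to 32.8 and 33.0 CPM, while ATP5MF itself fell by 0.53 and 0.50. ATP5MGL had at most 2 counts and was not tested.

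The response of 31 members differed between the lines by the interaction term (FDR under 0.05), 23 with a lower and 8 with a higher log2 change in 1205Lu-R. Among all 16062 genes tested, 27.1% were lower and 22.6% higher. This split rested on the scaling, since with library sizes alone 8 members were lower and 34 higher, the members' median went from -0.07 to 0.14 and that of all genes from -0.01 to 0.20. Relative to all genes, the members' median thus lay 0.06 lower under either scaling. The share of higher calls among all genes went from 45.4% to 64.0%, and among the members from 25.8% to 81.0%. Only NDUFS3 differed by at least 1.5-fold, falling further in 1205Lu-R (-0.61 ± 0.10, FDR 4.73e-05), and no member was higher by that much, where 15.8% and 14.7% of all genes were.

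Without corin, the lines differed in a share of nuclear OXPHOS genes near that of all genes, and in a smaller share by at least 1.5-fold. Of 80 members tested, 28 were higher and 41 lower in 1205Lu-R than in 451Lu-R, against 41% and 41.5% of all genes, and 6 were higher and 19 lower by at least 1.5-fold, against 28.4% and 30.6%. With library sizes alone 15 were higher in place of 28 and the share of higher calls among members went from 40.6% to 24.6%, while the median of all genes went from -0.01 to -0.12. The 3 largest differences were those of NDUFB1, ATP5MJ and ATP5MC2, all lower in 1205Lu-R. NDUFB1, an accessory subunit of complex I, was at 30.6 and 36.8 CPM in 451Lu-R against 11.7 and 10.8 CPM in 1205Lu-R (log2 -1.57 ± 0.11, FDR 2.43e-12), and with corin at 34.6 and 33.1 and at 9.97 and 10.4 CPM. ATP5MJ, a small proteolipid of complex V, was at 65.0 and 64.6 against 23.0 and 21.3 CPM (log2 -1.54 ± 0.07), and with corin at 65.5 and 63.1 and at 16.4 and 19.9 CPM. Neither passed the test for corin in either line. ATP5MC2 was lower by 1.51 ± 0.05.

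SDHA was lower in 1205Lu-R by 1.5 ± 0.04, and NDUFA9 higher by 1.36 ± 0.05 and UQCRC1 by 0.92 ± 0.03. Corin moved SDHA and UQCRC1 up in both lines and NDUFA9 down in both, so the order of the lines stayed as it was for each of these genes. Each kind of cell is 1 line here, and phenotype and line cannot be told apart.

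**Figure D4:**
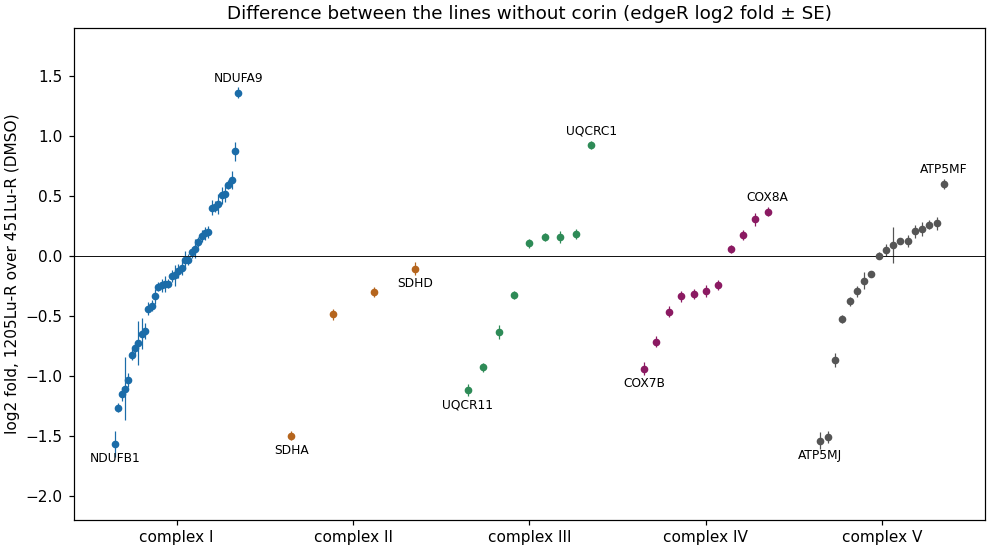
The log2 fold of 1205Lu-R over 451Lu-R with DMSO is plotted for 80 members in rising order within each complex, with bars for the SE and names at the lowest and highest gene. Values run from -1.57 (NDUFB1) to 1.36 (NDUFA9), and each complex holds genes well below 0.

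Levels of different genes were compared per kb of the canonical transcript. Medians per complex were taken over members with at least 1 CPM in a group, without the read-through genes. COX6B2 therefore entered that of complex IV only with corin. The median CPM per kb, averaged over the 4 groups, was 182 for complex IV, 107 for complex V, 80.3 for complex II, 74.4 for complex III and 64.5 for complex I. Complex IV was highest and complex I lowest also when scaled to coding length or to the union of exons, while the order of the others changed. Among the tested genes of complex I with DMSO in 451Lu-R, values ran from 5.45 for NDUFV3 to 276 for NDUFB9.

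Together the members took 0.976% and 0.979% of the counts with DMSO against 0.868% and 0.875% after corin in 451Lu-R. The share in 1205Lu-R was 0.829% and 0.814% against 0.777% and 0.778%. The mitochondrially encoded subunits went the opposite way. These 13 genes, for subunits of complexes I, III, IV and V, took 1.52% and 1.57% of the counts with DMSO against 3.41% and 3.39% after corin in 451Lu-R, and 0.295% and 0.294% against 0.524% and 0.526% in 1205Lu-R. All 13 rose in both lines (12 of 13 by DESeq2 in 1205Lu-R), with a median log2 change of 1.33 in 451Lu-R cells and of 0.77 in 1205Lu-R cells. MT-CO1, the catalytic subunit of complex IV, rose by 1.33 ± 0.02 and 0.76 ± 0.02 while its nuclear partner COX4I1 was at -0.03 and 0.03.

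Per 100 counts of nuclear members, the mitochondrial genes had 156 and 161 counts with DMSO against 393 and 388 after corin in 451Lu-R, and 35.5 and 36.1 against 67.4 and 67.6 in 1205Lu-R. Without corin all 13 were lower in 1205Lu-R, by a median of 2.18 on the log2 scale, where 41.5% of all genes were lower. Of these 13 genes, 11 had a lower and 1 (MT-ND3) a higher response in 1205Lu-R by the interaction term. Among all genes 27.1% were lower and 22.6% higher. How far this split depends on the scaling is not given here for the mitochondrial genes. Reads of nuclear copies of mitochondrial genes cannot be told apart from them here.

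**Figure D5:**
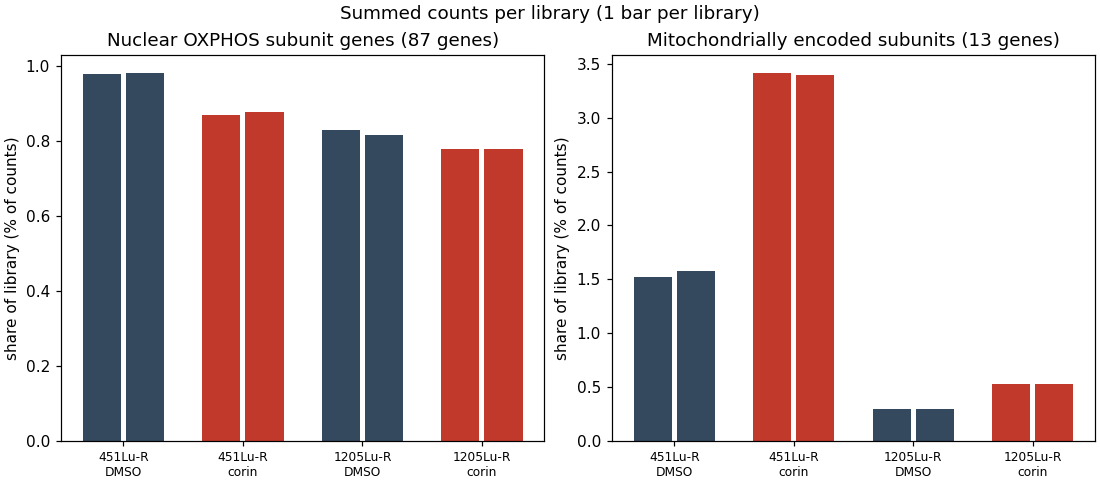
Bars give the share of each library's counts taken by the 87 nuclear members (left) and by the 13 mitochondrially encoded subunits (right), with 1 bar for each library and separate y axes. The nuclear share is lower with corin in both lines and the mitochondrial share is higher, and the mitochondrial share in 1205Lu-R is at most 0.526%.

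The genes that build the complexes moved in both directions with corin. Of 50 assembly factors, 6 were raised and 31 lowered in 451Lu-R cells, against 14 and 23 in 1205Lu-R cells. These are 12% and 62% of the list, then 28% and 46%, where all genes gave 41.3% and 38.6% in 451Lu-R cells and 40.4% and 37.8% in 1205Lu-R cells. For complex I, 12 of 14 factors fell in 451Lu-R cells and 9 of 14 in 1205Lu-R cells, with TMEM126B at -1.01 and -1.26 and NDUFAF1 the one that rose, at 0.76 and 0.93. For complex IV, 14 and 11 of 22 fell, among them the copper factor COA6 by 1.53 and 1.32 and the translation activator TACO1 by 1.28 and 1.41. Among the 6 factors of complex III, TTC19 rose by 1.27 and 0.93, while 4 fell in 451Lu-R but 2 in 1205Lu-R. The 4 complex II factors did not pass the test in 451Lu-R, and in 1205Lu-R SDHAF3 and SDHAF4 rose by 1.25 and 1.53 and SDHAF2 fell by 0.54. Of the 4 complex V factors, 1 rose and 1 fell in 451Lu-R, and all 4 rose in 1205Lu-R (median 0.41). Of 78 proteins of the mitochondrial ribosome, which translates the 13 mitochondrial mRNAs, 6 rose and 61 fell in 451Lu-R (median -0.52) and 12 rose and 56 fell in 1205Lu-R (median -0.35), so that 78.2% and 71.8% of the list fell.

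Of 8 activators of these genes, PPARGC1A rose from 4.56 and 3.52 to 30.8 and 31.3 CPM in 451Lu-R. Its level in 1205Lu-R was 0.0943 and 0 CPM with DMSO and at 3.22 and 4.48 with corin. PPRC1, a related coactivator, fell by 2.07 ± 0.09 and 1.30 ± 0.07, NRF1 by 1.12 ± 0.12 and 0.86 ± 0.12, YY1 by 0.31 and 0.52, and GABPA by 0.42 and 0.33. TFAM, which packages mitochondrial DNA, was at -0.08 (FDR 0.12) in 451Lu-R and rose by 0.53 in 1205Lu-R. PPARGC1B fell by 0.41 in 451Lu-R and rose by 0.66 in 1205Lu-R, and ESRRA fell by 0.24 in 451Lu-R and was at -0.07 (FDR 0.33) in 1205Lu-R.

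RefSeq promoter windows (GRCh38.p14, 250 bases before to 50 after a start) were matched by symbol for 68 of the 87 members, with 81 windows in all. Both strands were searched for motifs that these activators and general factors are known to bind, and a window could hold several. The NRF1 core GCGCANGCG was in 28.4% of the members' windows and 7.52% of all 35116 windows. The ETS motif CCGGAAG, bound by GABPA, was in 27.2% against 10.3%, the YY1 motif AAGATGGCG in 12.3% against 1.75%, and the ERR motif AAGGTCA in 14.8% against 3.92%. GGGCGG (SP1) was in 63.0% against 45.0%, CCAAT in 33.3% against 34.6% and CACGTG in 8.64% against 7.26%. Members that fell in both lines held the NRF1 core in 11 of 28 genes with a window members that rose in both in 4 of 8 and the other tested members in 7 of 30. For the ETS motif these counts were 9 of 28, 0 of 8 and 12 of 30.

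Upstream stretches of a falling and of 2 rising genes are shown because they hold several such matches each. They were chosen after the values were seen and have NRF1 core or ETS matches in capitals. All lie before a RefSeq start of the gene, and those of UQCRC1 and NDUFS3 fall inside the span that GENCODE 44 gives the gene. SDHA is shown at chr5:218154-218297 (plus strand), UQCRC1 at chr3:48609647-48609746 (minus strand) and NDUFS3 at chr11:47578970-47579028 (plus strand).
SDHA: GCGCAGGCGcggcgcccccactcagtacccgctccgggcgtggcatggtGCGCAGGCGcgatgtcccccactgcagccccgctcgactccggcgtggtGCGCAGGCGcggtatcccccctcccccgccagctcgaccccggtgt
UQCRC1: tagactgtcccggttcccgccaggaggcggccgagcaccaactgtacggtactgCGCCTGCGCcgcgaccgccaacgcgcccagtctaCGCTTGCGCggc
NDUFS3: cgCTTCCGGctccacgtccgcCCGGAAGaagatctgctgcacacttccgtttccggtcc
In SDHA the NRF1 core recurs every 49 bases, 4 times in the window, with the last copy beyond the stretch shown. UQCRC1 has the core 46 and 12 bases before its start, on the opposite strand. NDUFS3 has ETS matches 102 bases before its start on the opposite strand and 83 bases before it on its own, 19 bases apart. A match of letters is a description and not a measure of binding.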

How the data were processed

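RNA-Seq of 451Lu-R and 1205Lu-R cells was analysed. Per the labels, the authors used Trimmomatic for trimming, then Salmon on the GENCODE 32 transcripts, summed to genes, with versions not given in the sources used here. They deposited expected counts (Salmon's estimated counts), not normalized, which were rounded to whole numbers. Of 16 samples, 8 had counts. For PLX4032 with corin against PLX4032 the authors deposited tables of their own log2 fold changes and adjusted p-values, which were not used. No columns were left unmapped. Some genes are not reported here by name and enter the counts only.

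Genes were named with GENCODE 44 (34052 of 34228 matched). Comparisons used edgeR 4.0.16 in R 4.3.3 (filterByExpr, TMM, glmQLFit, glmQLFTest, 2-sided, Benjamini-Hochberg over all genes tested): corin against DMSO in each line (2 and 2 libraries), the lines without corin (2 and 2), and the interaction of line and treatment (8 libraries). CPM in the text use TMM factors over all 8 libraries, and log2 fold changes those of each comparison, so the values can differ slightly. Members and lists were chosen with earlier results of these data known. Values per library are given for the 2 members per complex and corin comparison with the largest called change (mean of at least 1 CPM), paralogue sets, members past 1.5-fold in the interaction and the 3 largest line differences; others named with such values were chosen after these were seen. The count floor was 3. Intervals are exact at 95% and cover counting error only.

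For each comparison, edgeR and DESeq2 were also run on simulated counts with a small set of genes changed by known folds. Of 67 changes of 1.5-fold, edgeR recovered 47 to 61 and DESeq2 32 to 46. Far fewer genes changed there than in the data, so the scaling was not checked by it. Alternatives were RLE factors, library size only, DESeq2 1.42.0, omitting the filter, a minimum mean of 1 CPM, added pseudogene counts, all libraries in one fit, a replicate block, leaving out each library and other transcript lengths.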

Additional observations from a re-analysis of the deposited data

Results flagged for a closer look

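The corin response differed between the lines for 31 members by the interaction term at an FDR under 0.05 (values are the log2 response of 1205Lu-R minus that of 451Lu-R), and 9 of them had estimates of opposite sign in the lines. In complex I the response was lower in 1205Lu-R for NDUFS3 (-0.61), NDUFA6 (-0.53), NDUFA9 (-0.53), NDUFS4 (-0.32), NDUFB9 (-0.25), NDUFA13 (-0.22), NDUFV2 (-0.21) and NDUFC2 (-0.18), and higher for NDUFS8 (0.47), NDUFC1 (0.47) and NDUFS7 (0.30). In complex II it was lower for SDHC (-0.25) and higher for SDHA (0.26). In complex III it was lower for UQCRFS1 (-0.38), UQCRC2 (-0.36), UQCRC1 (-0.26) and UQCR10 (-0.22), and higher for CYC1 (0.18). In complex IV it was lower for COX6A1 (-0.47), COX7B (-0.40), COX7A2L (-0.30) and COX5A (-0.20), and higher for COX5B (0.26). In complex V it was lower for ATP5F1B (-0.33), ATP5F1A (-0.28), ATP5F1C (-0.27), ATP5F1E (-0.26), ATP5MC3 (-0.24) and ATP5PB (-0.14), and higher for ATP5F1D (0.47) and ATP5MK (0.20). With library sizes alone 15 of the 31 were no longer called, and ATP5PB, COX5A, NDUFC2 and NDUFV2 changed sign. DESeq2 did not call 9 of them and RLE factors did not call ATP5PB.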

How the results depend on the processing

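Among RLE factors, library size alone and DESeq2, it was DESeq2 that lost the most calls in both corin comparisons. For 451Lu-R, 10 of the 62 called members were lost with DESeq2 against 4 with library size alone. The 1205Lu-R comparison, with 58 called members, lost 14 by DESeq2 and 7 by library size alone. Scaling by library size alone lost the most calls between the lines without corin (13 of 69) and for the interaction (15 of 31). Between the lines without corin 15 members were then higher, 3 of them by at least 1.5-fold, and in the interaction 34 were higher and 8 lower, with 3 and 0 past 1.5-fold, and the members' median was 0.14. Under that scaling UQCRC2 between the lines was at -0.0031 and ATP5PB in the interaction at 0.072. Leaving out 1 library gave 5 to 9 members higher and 17 to 25 lower in the interaction, with 0 to 1 higher and 0 to 2 lower by at least 1.5-fold; the 5 came without the first DMSO library of 451Lu-R, and NDUFS3 was under 1.5-fold without the first corin library of 451Lu-R, the first DMSO library of 1205Lu-R or the first corin library of 1205Lu-R, while 2 members passed it without the first DMSO library of 451Lu-R, the second DMSO library of 1205Lu-R or its second corin library. With 1 library left out, 451Lu-R had 18 to 22 rising and 40 to 42 falling members, 1205Lu-R had 11 to 14 and 39 to 47, and between the lines 24 to 27 were higher and 38 to 42 lower. A fit with 1 library left in a group assumes that it varies like the others. The causes were not tested.

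With the replicate number as a block, 451Lu-R had 20 rising and 43 falling members and 1205Lu-R had 15 and 44, 28 were higher and 41 lower between the lines, and 8 were higher and 22 lower in the interaction. No source says that the numbers mark a shared origin, and deviations of same-numbered libraries from their group means correlated between -0.038 and 0.047. The block brought ATP5MJ in 1205Lu-R past the threshold (adjusted p 0.0429) and took ATP5PB in the interaction below it (0.0506).

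For members with values per library, 789 results kept direction and call under alternatives that used every library, 18 came past the threshold, 20 fell below it and 2, given above, reversed. The call of NDUFS3 between the lines (FDR 0.0481) was among those lost with RLE factors and DESeq2. By coding length, chosen after seeing the data, the medians per kb of complexes I to V were 117, 133, 323, 375 and 246, and by the union of exons 18.3, 35.6, 49.3, 64.9 and 37.5. Depth limits statements on the 6 members with at most 6 counts in a library.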

Other observations

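Corin also changed single genes next to the nuclear OXPHOS genes. CYCS, which encodes cytochrome c, the carrier between complexes III and IV, rose from 205 and 219 to 368 and 374 CPM in 451Lu-R and from 637 and 610 to 1067 and 1052 CPM in 1205Lu-R, while CYC1, its electron donor, fell in both. NDUFAB1, the mitochondrial acyl carrier protein and a subunit of complex I, fell by 0.79 and 0.56 on the log2 scale, and ATP5IF1, the inhibitor of ATP synthase, was at -0.12 (FDR 0.072) in 451Lu-R and fell by 0.50 in 1205Lu-R. Of 13 citrate cycle enzymes 451Lu-R raised 5 and lowered 6, and 1205Lu-R raised 4 and lowered 8. The shares of all genes raised and lowered were 41.3% and 38.6% in 451Lu-R cells and 40.4% and 37.8% in 1205Lu-R cells, and the 38.5% and 46.2% of this list in 451Lu-R lie near those shares. In 1205Lu-R 30.8% of the list rose and 61.5% fell, the latter above the share of all genes. Citrate synthase (CS) fell by 0.77 and 0.69 and IDH3B by 1.02 and 0.87, whereas OGDH rose by 1.28 and 1.18.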
